A study of Rattus norvegicus with 9 samples.

Results

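The Rab GTPase genes of RBL-2H3, a rat basophilic leukemia line widely used as a mast cell model, were examined in 9 RNA-seq samples. Members were chosen by name alone, as every symbol made of Rab, a number and at most a letter with a further number. The tables held 58 such symbols, of which 56 had a value among 18006 genes with one. Rab17 and Rab39a were listed without a value in any sample. The 3 Ctrl samples carry the label untreated. The 3 IgE/DNP samples received anti-DNP IgE (50 ng/ml, 12 h), followed by a challenge of 4 h with DNP-HSA at 100 ng/ml, the antigen that cross-links this IgE. The 3 PF samples had PF for 1 h in addition before the antigen. PF is not identified in the labels, which give the PF samples antigen for 4 h in the protocol and for 4, 5 and 6 h in the sample descriptions. The protocol text, shared by all samples, does not set the Ctrl cells apart, so whether they received IgE is not known. Below, "after antigen" stands for IgE/DNP against Ctrl, where IgE and antigen cannot be told apart. No group had PF without antigen. If the times in the sample descriptions hold, PF samples also differ from IgE/DNP samples in antigen time, and the group comparisons cannot separate this from PF.

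The labels call the tissue peripheral blood, while the cells are an established line that grows in culture. Of 13 mast cell and basophil markers, 10 were at or above 1 FPKM in every sample. The sum of these markers ranged from 5364.5 to 5763.7 FPKM, with Srgn alone at 2688.46 to 3003.76 FPKM. Tpsab1 and Tpsb2 had no value, and Mcpt1l1 was at 0.17 to 0.99 FPKM. The markers of T cells, B cells, macrophages, fibroblasts and epithelium summed to at most 10.2 FPKM per list, and most of the T cell sum came from Cd3e. The values carry no unit and were read as FPKM, fragment counts divided by transcript length and by library size. Their sums lie between 573023 and 630069 per sample and are highest in the PF samples. The depth in reads is unknown, so the spread over 3 samples per group is the only error given. Nothing in the labels says that the 3 samples of a group came from separate cultures, so p-values measure only the spread between these samples, which may be technical.

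Rab proteins are small GTPases that mark the membranes of the cell. An exchange factor (GEF) loads a Rab with GTP on its membrane, the loaded Rab recruits effectors such as tethers and motors, and a GTPase activating protein (GAP) switches it off. Geranylgeranyl tails hold Rabs on membranes, and GDI proteins carry the inactive form through the cytosol. In mast cells, antigen bound to IgE on the receptor FceRI triggers the fusion of secretory granules with the plasma membrane, a step in which Rab27a and Rab27b take part. Transcript levels, as measured here, do not show how much of a Rab is loaded with GTP.

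RBL-2H3 cells had many Rab transcripts at high levels. Of the 56 members, 14 had a mean of at least 50 FPKM over the 9 samples, 25.0% of the family against 11.0% of all genes with a value. The median level was 12.2 FPKM for the members and 2.67 FPKM for all genes. The 5 highest members carried 33.9% of the summed Rab FPKM and the 10 highest carried 57.9%. Rab5c, a regulator of early endosome fusion, was first with a mean of 163 FPKM. It was followed by Rab1a, which acts between endoplasmic reticulum and Golgi, at 139.6 FPKM, and by Rab32, which acts in the making of lysosome-related organelles, at 107 FPKM. Rab27a and Rab27b came next, both at 102 FPKM. This order pools groups that differ. Rab32 had a mean of 122 FPKM in Ctrl and 89.6 FPKM in PF, below Rab11b (101 FPKM), Rab27b (99.4 FPKM) and Rab27a (98.7 FPKM) there, and in IgE/DNP Rab27a (114 FPKM) was above Rab32 (109.9 FPKM). With the 43 tested members put in order of their Ctrl means, the Ctrl ranges of 30 of the 42 neighbouring pairs overlapped, so those neighbours were not separated by the spread.

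**Figure D1:**
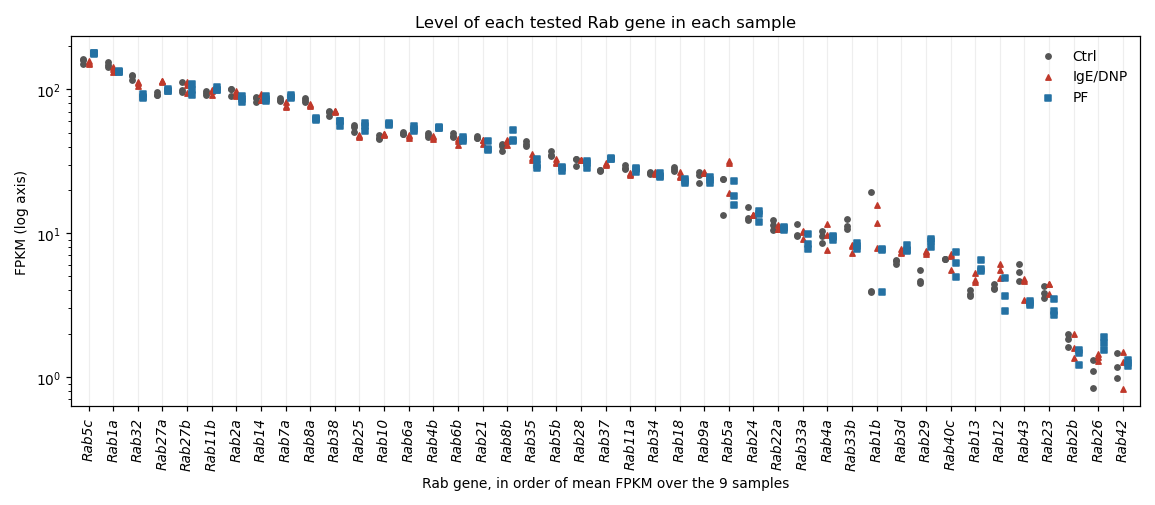
FPKM on a log axis (vertical) of the 43 tested Rab genes, in order of their mean over the 9 samples (horizontal), with 1 point per sample and a marker shape for each group. The order runs from Rab5c, with a mean of 163 FPKM, down to members near 1 FPKM, and for most genes the 3 groups lie close together on this scale.

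The summed FPKM of all 56 members lay between 1822 and 1854 in Ctrl, between 1805 and 1817 in IgE/DNP and between 1755 and 1798 in PF. As a share of all FPKM, this was 0.313 to 0.316% in Ctrl, 0.310 to 0.317% in IgE/DNP and 0.279 to 0.295% in PF. The Ctrl and IgE/DNP shares overlapped, and every PF share was below them. By role, genes of recycling and polarized transport made up 30.1 to 32.4% of the Rab sum and genes of regulated secretion 12.3 to 14.6%. Secretory members summed to 227.4 to 239 FPKM in Ctrl, 248.7 to 265.4 FPKM in IgE/DNP and 231.4 to 253.3 FPKM in PF. Members of late endosomes and lysosome-related organelles summed to 313.8 to 327.8 FPKM in Ctrl, 305.6 to 318.2 FPKM in IgE/DNP and 285.4 to 288.6 FPKM in PF. The PF range of this last sum was separate from both others, but its members did not all fall. Rab32 went from a mean of 122 FPKM in Ctrl to 89.6 FPKM in PF, and Rab38 from 68.4 to 58.6 FPKM. Rab7a (85.0 and 89.0 FPKM) and Rab29 (4.90 and 8.64 FPKM) were higher by mean in PF.

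Each comparison used limma on log2(FPKM + 1) with Benjamini-Hochberg adjustment over all tested genes, and a gene with an adjusted p of at most 0.05 was called. Log2 fold changes below are on this scale, which understates the change of low genes, and are written for the first-named group against the second. In bulk RNA, fewer cells of a kind and less RNA per cell cannot be told apart. A total of 43 members passed the filter on low values in each comparison, and the other 13 did not pass in any of them. Of the 43, 30 were called in at least 1 comparison (69.8%), close to the 70.1% of 10200 genes tested in all 3, and 13 in none. No member that was called moved by as much as 1 on the log2 scale. Calls were checked in 14 alternative settings at the same threshold of 0.05, and "every setting" refers to these.

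In IgE/DNP against Ctrl, 15 of 43 members were called (34.9%), where 29.2% of all 10392 tested genes were. Of these, 6 were higher, 14.0% of members against 14.7% of all genes, and 9 were lower, 20.9% against 14.4%. Among those called, the largest rise was that of Rab29 and the largest fall that of Rab33b. All 15 had groups that did not overlap, as had 99.7% of all called genes (29.1% of those tested). The median log2 fold change was -0.01 for the members and -0.01 for all genes. This count was smaller whenever a sample was left out, in fits that have fewer samples for every gene. Without Ctrl 1, Ctrl 2 or Ctrl 3 it was 8, 10 or 6, and without IgE/DNP 1, 2 or 3 it was 7, 6 or 5. The shares of all genes called in these fits are not given, so the drop is not read as particular to the members. Rab27a, Rab29, Rab33b and Rab35 were called in all 14 alternative settings. With the samples scaled to the same sum the members called were 6 higher and 4 lower in place of 6 and 9. Of all genes 16.0% were higher and 12.3% lower in that setting.

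In PF against IgE/DNP, 20 of 43 members were called (46.5%), where 48.8% of all 10329 tested genes were. Of these, 9 were higher, 20.9% of members against 18.1% of all genes, and 11 were lower, 25.6% against 30.7%. The split depended on the scaling of the samples. It was 11 higher and 7 lower with median ratio scaling, and 3 higher and 19 lower with scaling to the same sum. Over all genes the share of calls that were higher moved likewise, from 37.1% as deposited to 48.0% and 16.8%. The median log2 change of all tested genes was -0.04 as deposited, 0.006 with median ratio scaling and -0.128 with scaling to the same sum. Rab10, Rab4b and Rab5c on the higher side and Rab23, Rab27a, Rab32, Rab38 and Rab8a on the lower side were called in every setting, although Rab23 (adjusted p = 0.0113) would not pass a threshold of 0.01. Groups did not overlap for 19 of the 20, against 98.4% of all called genes (48.0% of those tested). Without IgE/DNP 2 the count fell to 13, and without each other sample it was between 14 and 19. The shares of all genes called in these fits are likewise not given.

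In PF against Ctrl, 21 of 43 members were called (48.8%), where 57.7% of all 10361 tested genes were. Of these, 9 were higher, 20.9% of members against 23.1% of all genes, and 12 were lower, 27.9% against 34.6%. Groups did not overlap for 20 of the 21, against 98.1% of all called genes (56.6% of those tested). The split was 13 and 10 with median ratio scaling and 6 and 15 with scaling to the same sum. Over all genes 40.0% of calls were higher as deposited, 48.0% with median ratio scaling and 26.7% with scaling to the same sum. The 3 comparisons share samples, so their values are given side by side and are not independent of each other.

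**Figure D2:**
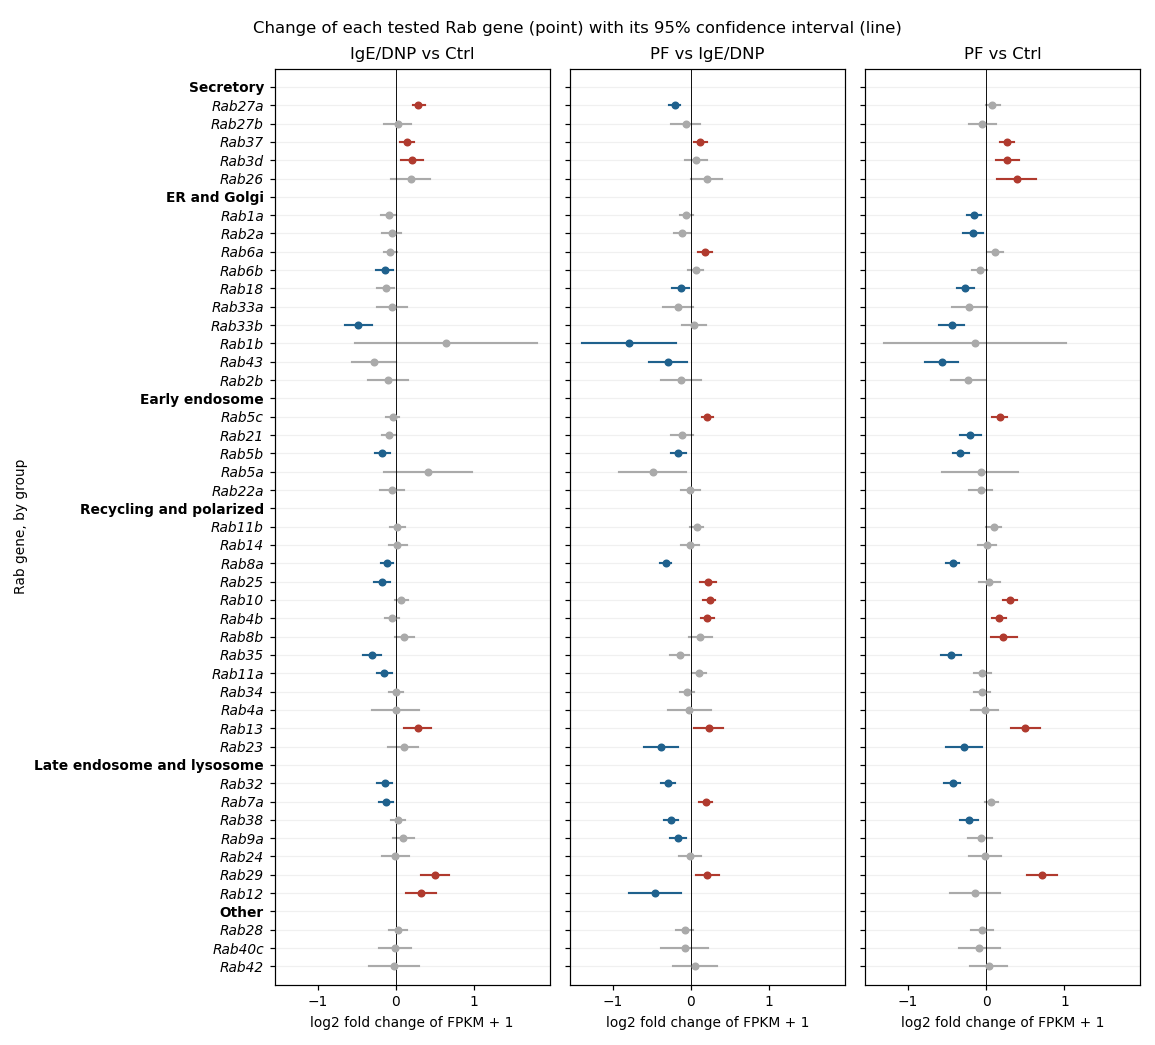
Log2 fold change of FPKM + 1 (horizontal) with its 95% confidence interval for the 43 tested Rab genes, grouped by role (vertical), with a panel for each of the 3 comparisons; red marks members called higher, blue lower and grey not called. Rab29 lies at 0.50 and Rab33b at -0.48 in IgE/DNP against Ctrl, and the wide intervals of Rab1b and Rab5a stand out.

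Promoter windows show what sequence stands before the listed start of a gene. RefSeq windows on the rat build GRCr8 were found for 47 of the 58 symbols, and the 250 bases before the listed start were searched on both strands. These 47 are called member windows below and include those of Rab17 and Rab39a, which had no value. The windows of Rab29 and Rab33b are shown because these genes had the largest called rise and fall after antigen. That of Rab4b is shown because it combines an AP-1 motif with a call in every setting of PF against IgE/DNP. This choice was made with its values known and says nothing about a link between motif and call. Capitals mark motif matches, of which the Rab29 window has none.
Rab29, chr13:45859788-45860037, plus strand: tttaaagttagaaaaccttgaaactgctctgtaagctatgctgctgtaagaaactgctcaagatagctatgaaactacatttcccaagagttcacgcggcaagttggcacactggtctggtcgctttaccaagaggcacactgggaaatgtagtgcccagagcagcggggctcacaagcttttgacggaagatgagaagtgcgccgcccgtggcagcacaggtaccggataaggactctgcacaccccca
Rab33b, chr2:137678728-137678977, plus strand: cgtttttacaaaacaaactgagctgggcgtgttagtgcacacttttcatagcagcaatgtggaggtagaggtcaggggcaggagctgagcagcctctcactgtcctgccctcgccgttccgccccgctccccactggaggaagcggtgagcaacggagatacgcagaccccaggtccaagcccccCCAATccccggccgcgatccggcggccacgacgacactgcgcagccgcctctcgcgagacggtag
Rab4b, chr1:91600338-91600587, minus strand: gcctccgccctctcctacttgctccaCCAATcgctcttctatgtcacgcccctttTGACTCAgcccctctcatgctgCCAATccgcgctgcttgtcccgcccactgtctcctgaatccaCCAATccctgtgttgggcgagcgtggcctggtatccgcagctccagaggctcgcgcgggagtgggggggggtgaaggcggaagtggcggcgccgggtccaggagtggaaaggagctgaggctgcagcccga

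The AP-1 motif TGANTCA, which Fos and Jun dimers read, stood in 4 member windows (8.51%) against 6.36% of all 27457 windows. These were Rab27b, Rab34, Rab4b and Rab9a. Their calls differed. Rab27b and Rab34 were not called in any comparison, and Rab9a was lower in PF against IgE/DNP (-0.16, limma adjusted p = 0.0184), where Rab4b was higher. The CRE motif TGACGTCA stood in 2.13% of member windows against 1.70%, the E-box CACGTG in 6.38% against 5.79% and the CCAAT box in 34.0% against 34.3%. The EGR motif GCGTGGGCG was found in no member window and in 0.514% of all windows. The GC box GGGGCGGGG stood in 10 member windows (21.3%) against 9.74%, and the median GC content was 62.4% in member windows against 52.0% in all. A match describes these letters only.

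Among the secretory members, Rab27a rose after antigen and was lower again with PF, while its close relative Rab27b was not called in any comparison. Rab27a and Rab27b sit on secretory granules and act in their docking and fusion. Rab27a was at 91.4, 91.9 and 95.9 FPKM in Ctrl, 115, 113 and 114 FPKM in IgE/DNP and 97.8, 97.0 and 101 FPKM in PF. All 3 groups were separate, with IgE/DNP highest. Its log2 fold change was 0.29 (SE 0.0325, limma adjusted p = 0.000606) in IgE/DNP against Ctrl and -0.21 (adjusted p = 0.000682) in PF against IgE/DNP, and it was not called in PF against Ctrl (0.08, adjusted p = 0.0861). Rab27b was at 112, 99.3 and 96.1 FPKM in Ctrl, 108, 112 and 93.8 FPKM in IgE/DNP and 98.6, 90.6 and 109 FPKM in PF. The 3 groups of Rab27b overlapped, and its 95% interval in IgE/DNP against Ctrl ran from -0.15 to 0.20. In PF against IgE/DNP its change was -0.07, with an interval of -0.25 to 0.11. That interval holds the -0.21 of Rab27a, so the 2 genes were not told apart there.

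Rab37 and Rab3d, both linked to regulated exocytosis, were higher with antigen and highest by mean in the PF samples. Rab37 was at 26.9, 27.7 and 27.3 FPKM in Ctrl, 29.6, 30.4 and 30.8 FPKM in IgE/DNP and 33.2, 33.0 and 32.9 FPKM in PF. The groups were separate and narrow, and Rab37 was called higher in all 3 comparisons, by 0.14 (adjusted p = 0.0218), 0.12 (adjusted p = 0.0217) and 0.27 (adjusted p = 0.000507). The call in PF against Ctrl held in every setting. The call in IgE/DNP against Ctrl was lost without Ctrl 1, IgE/DNP 2 or IgE/DNP 3, and that in PF against IgE/DNP without IgE/DNP 1, IgE/DNP 2 or PF 1, with the replicate number as a block and with scaling to the same sum. Rab3d was at 6.06, 6.51 and 6.38 FPKM in Ctrl, 7.24, 7.78 and 7.36 FPKM in IgE/DNP and 8.28, 7.69 and 7.56 FPKM in PF. It was higher in IgE/DNP than in Ctrl (0.21, SE 0.0604, adjusted p = 0.0322), a call lost without any 1 of the 6 samples, without the filter and with the block, and higher in PF than in Ctrl in every setting (0.27, adjusted p = 0.0059). The PF and IgE/DNP samples of Rab3d overlapped, and its log2 difference of 0.06 turned to -0.02 with scaling to the same sum.

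The other secretory members were low. Rab26, found on secretory granules and linked to autophagy, was at 1.32, 0.84 and 1.10 FPKM in Ctrl, 1.30, 1.44 and 1.37 FPKM in IgE/DNP and 1.73, 1.90 and 1.55 FPKM in PF. It was called only in PF against Ctrl (0.39, adjusted p = 0.0152), and not without Ctrl 2 or PF 2. Rab3a, the vesicle Rab of neurons, was at 0.55 to 1.03 FPKM and did not pass the filter. Rab3b was at 0.06 to 0.42 FPKM and Rab44 at 0.02 to 0.15 FPKM. Rab3c was listed at 0 in 8 samples and at 0.07 FPKM in Ctrl 3. In all, 3 of the 5 tested secretory members were higher and none lower in IgE/DNP against Ctrl, with a median log2 fold change of 0.19 against -0.01 over all genes. Of all genes 14.7% were higher and 14.4% lower there. In PF against IgE/DNP 1 was higher and 1 lower (18.1% and 30.7% of all genes), and in PF against Ctrl 3 were higher and none lower (23.1% and 34.6%).

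**Figure D3:**
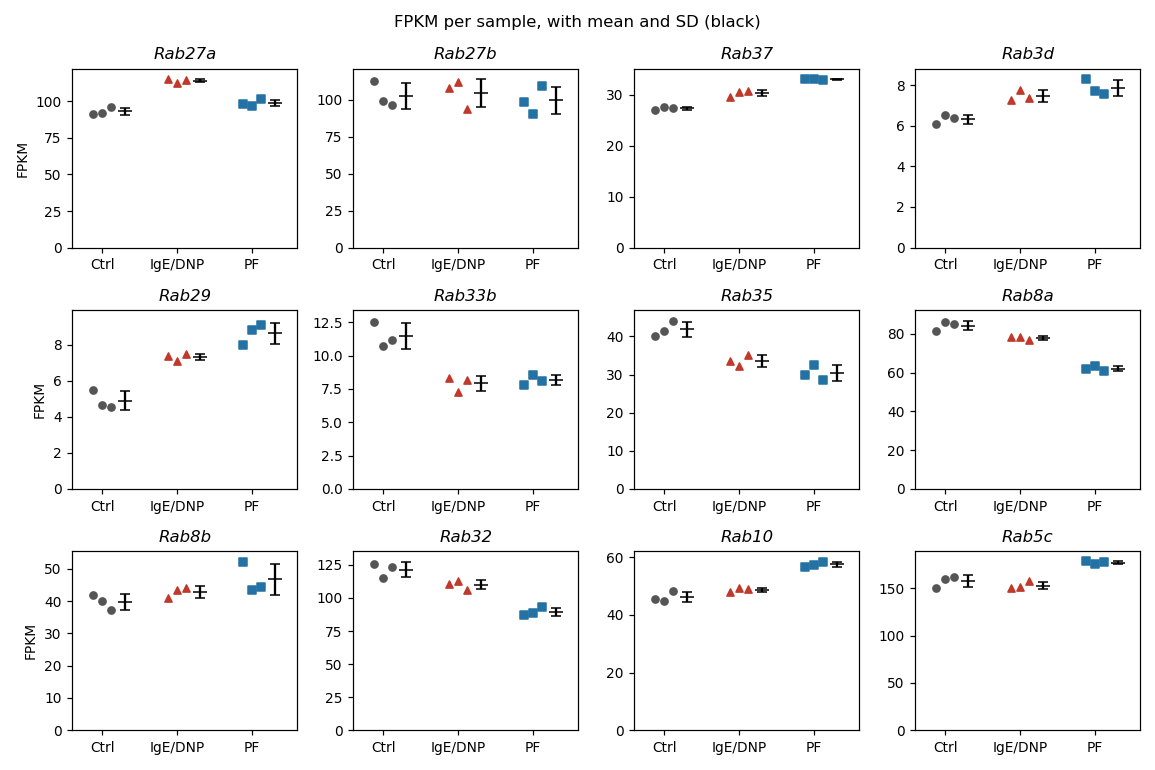
FPKM (vertical, linear axis from 0) in each of the 3 samples of Ctrl, IgE/DNP and PF for 12 Rab genes, with the mean and SD of each group in black. Rab27a is highest in IgE/DNP (113 to 115 FPKM), Rab29 and Rab37 step up from Ctrl to IgE/DNP to PF, and Rab8a is lowest in PF (61.0 to 63.5 FPKM).

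The late endosome and lysosome-related group held both the largest called rise after antigen and the falls of Rab32 and Rab38 with PF. Of its 7 tested members, 2 were higher and 2 lower in IgE/DNP against Ctrl (14.7% and 14.4% of all genes). In PF against IgE/DNP 2 were higher and 4 lower (18.1% and 30.7%), and in PF against Ctrl 1 was higher and 2 lower (23.1% and 34.6%). Rab29, which works at the trans-Golgi network and on stressed lysosomes and recruits the kinase LRRK2, was at 5.51, 4.64 and 4.54 FPKM in Ctrl, 7.37, 7.11 and 7.47 FPKM in IgE/DNP and 7.97, 8.85 and 9.09 FPKM in PF. The groups did not overlap. Its mean rose from 4.90 ± 0.534 (SD, n = 3) to 7.32 ± 0.186 FPKM (0.50, SE 0.0772, limma adjusted p = 0.00249), and PF against Ctrl gave 0.71 (adjusted p = 0.00015). Between PF and IgE/DNP the difference was smaller (0.21, adjusted p = 0.0243) and was lost without IgE/DNP 1, IgE/DNP 2, PF 2 or PF 3, without the filter and with scaling to the same sum.

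Rab32 and Rab38, related Rabs that deliver cargo to melanosomes, platelet dense granules and other lysosome-related organelles, were both lower with PF. Rab32 was at 126, 115 and 123 FPKM in Ctrl, 110.4, 113 and 106 FPKM in IgE/DNP and 87.1, 88.7 and 93.1 FPKM in PF. The groups stood in 3 separate steps downward. Its change was -0.14 in IgE/DNP against Ctrl (adjusted p = 0.0342), a call kept in 5 of 14 settings and lost without each sample but Ctrl 2, -0.29 in PF against IgE/DNP (adjusted p = 0.000321) and -0.43 in PF against Ctrl (adjusted p = 7.75e-05). Rab38 was at 71.2, 69.1 and 65.0 FPKM in Ctrl, 70.2, 70.5 and 69.2 FPKM in IgE/DNP and 55.8, 60.0 and 60.1 FPKM in PF. Its Ctrl and IgE/DNP samples overlapped, and all PF samples were below them, with -0.25 in PF against IgE/DNP (adjusted p = 0.00076) and -0.22 in PF against Ctrl (adjusted p = 0.00489). Hps1 and Hps4 encode the subunits of their exchange factor BLOC-3. Hps1 was not called in any comparison (-0.02 in PF against IgE/DNP, adjusted p = 0.805), and Hps4 was called lower in PF against IgE/DNP (-0.20, adjusted p = 0.0246) and in PF against Ctrl (-0.33, adjusted p = 0.0058). The difference between these 2 genes was not tested, and they are named beside Rab32 and Rab38 after their values were seen.

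Rab7a, the main Rab of late endosomes and lysosomes, was lower in IgE/DNP than in Ctrl (-0.12, adjusted p = 0.0384) and higher in PF than in IgE/DNP (0.19, adjusted p = 0.00299). It was at 83.5, 84.7 and 87.0 FPKM in Ctrl, 75.6, 81.3 and 76.9 FPKM in IgE/DNP and 91.2, 87.6 and 88.1 FPKM in PF. The first call held in 5 of 14 settings and was lost without each sample but IgE/DNP 2, and the second was lost only with scaling to the same sum. Rab12, which acts between recycling endosomes and lysosomes, was at 4.13, 4.44 and 4.06 FPKM in Ctrl, 4.90, 6.15 and 5.55 FPKM in IgE/DNP and 4.90, 2.86 and 3.63 FPKM in PF. It was called higher after antigen (0.32, adjusted p = 0.0225) and lower with PF (-0.46, adjusted p = 0.0267), although PF 1 and IgE/DNP 1 had the same value. The second call was lost without IgE/DNP 2, IgE/DNP 3, PF 2 or PF 3, and the first without Ctrl 1, Ctrl 3, IgE/DNP 2 or IgE/DNP 3 and with all 9 samples in the fit. Both were lost without the filter.

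Among Rabs of the endoplasmic reticulum and Golgi, all calls in IgE/DNP against Ctrl and in PF against Ctrl were downward, 2 and 5 of 10 tested members, where 14.4% and 34.6% of all genes were lower. In PF against IgE/DNP 1 was higher and 3 lower, close to the 18.1% and 30.7% of all genes. Rab33b, a Golgi Rab that also binds the autophagy protein Atg16L1, was at 12.5, 10.7 and 11.2 FPKM in Ctrl, 8.29, 7.30 and 8.17 FPKM in IgE/DNP and 7.81, 8.56 and 8.09 FPKM in PF. Its Ctrl samples were separate from both other groups, which overlapped. The mean fell from 11.5 ± 0.95 to 7.92 ± 0.54 FPKM (-0.48, SE 0.0743, limma adjusted p = 0.00247), PF against Ctrl gave -0.44 (adjusted p = 0.000805) and PF against IgE/DNP 0.04 (adjusted p = 0.666, 95% interval -0.11 to 0.19). Rab43, which acts in transport into and through the Golgi, was at 5.41, 6.07 and 4.67 FPKM in Ctrl, 4.77, 4.64 and 3.42 FPKM in IgE/DNP and 3.40, 3.18 and 3.25 FPKM in PF. All PF samples were below the rest, and PF against Ctrl gave -0.57 (adjusted p = 0.000801) in every setting, while PF against IgE/DNP was at the edge of the threshold (-0.29, adjusted p = 0.0479), was kept in 5 of 14 settings and was lost without each sample but IgE/DNP 3.

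Rab1a, at 147, 143 and 154 FPKM in Ctrl, 139, 133 and 143 FPKM in IgE/DNP and 131.5, 131 and 135 FPKM in PF, was called only in PF against Ctrl (-0.15, adjusted p = 0.00878). Its close paralogue Rab1b had the lowest log2 fold change of any member in PF against IgE/DNP (-0.79, limma adjusted p = 0.0344). Rab1b was at 11.8, 7.91 and 15.7 FPKM in IgE/DNP and 7.75, 7.67 and 3.89 FPKM in PF. In Ctrl it was at 3.98, 19.5 and 3.91 FPKM. All 9 values were whole multiples, from 1 to 5, of a step of 3.83 to 3.98 FPKM, with a deviation of at most 1.97%. Rab1b thus took only a few discrete levels, which the fit on log2(FPKM + 1) does not take into account. The size of this fall is therefore not ranked against those of other members. Its call was kept in 8 of 14 settings. It was lost without IgE/DNP 1, IgE/DNP 3 or PF 3, without the filter, with all 9 samples in the fit and with limma without trend. Counted in such steps, the values were 1, 5 and 1 in Ctrl, 3, 2 and 4 in IgE/DNP and 2, 2 and 1 in PF. Rab1b shares sequence with Rab1a, and how reads were split between them was not tested. The step, taken as the worth of 1 unit, gave a relative depth of the samples between 0.983 and 1.02.

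The early endosome Rabs diverged. Rab5c was at 151, 160.3 and 163 FPKM in Ctrl, 150.1, 151 and 158 FPKM in IgE/DNP and 179, 176 and 178 FPKM in PF. The PF samples were above all others, by 0.21 against IgE/DNP (SE 0.0311, limma adjusted p = 0.000586) and by 0.17 against Ctrl (adjusted p = 0.00589), of which the second was lost with scaling to the same sum. Rab5b moved the other way, with 35.1, 34.5 and 37.1 FPKM in Ctrl, 30.6, 31.4 and 32.8 FPKM in IgE/DNP and 27.1, 28.4 and 28.9 FPKM in PF. It stood in 3 separate steps downward, with -0.17 (adjusted p = 0.0239), -0.16 (adjusted p = 0.0149) and -0.33 (adjusted p = 0.000453) in IgE/DNP against Ctrl, PF against IgE/DNP and PF against Ctrl. The first of these was lost without Ctrl 3, IgE/DNP 1 or IgE/DNP 2. The second was lost without IgE/DNP 3 or PF 1 and with median ratio scaling. Rab5a varied more than its relatives within a group, from 13.4 to 23.9 FPKM in Ctrl, 19.1 to 32.0 FPKM in IgE/DNP and 15.6 to 22.9 FPKM in PF. All its groups overlapped, and it was not called.

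Recycling and polarized transport was the largest group, with 13 tested members. In IgE/DNP against Ctrl 1 was higher and 4 lower, in PF against IgE/DNP 4 were higher and 2 lower, and in PF against Ctrl 4 were higher and 3 lower. The shares of all genes higher and lower were 14.7% and 14.4%, 18.1% and 30.7%, and 23.1% and 34.6%. Rab35, a Rab of rapid endocytic recycling, was at 40.1, 41.5 and 44.0 FPKM in Ctrl, 33.5, 32.1 and 35.2 FPKM in IgE/DNP and 29.9, 32.5 and 28.5 FPKM in PF. Its Ctrl samples were above all others, with -0.31 in IgE/DNP against Ctrl (SE 0.0495, limma adjusted p = 0.00302) and -0.45 in PF against Ctrl (adjusted p = 0.000251), and the difference of -0.14 between PF and IgE/DNP was not called (adjusted p = 0.0601). Rab8a, which directs traffic to the plasma membrane and the cilium, was at 81.6, 86.3 and 84.9 FPKM in Ctrl, 78.3, 78.6 and 76.8 FPKM in IgE/DNP and 61.7, 63.5 and 61.0 FPKM in PF. The groups were separate, with the wider gap before PF. The change was -0.11 in IgE/DNP against Ctrl (adjusted p = 0.0396), kept in 5 of 14 settings and lost without each sample but Ctrl 1, -0.32 in PF against IgE/DNP (SE 0.0324, adjusted p = 6.38e-05) and -0.43 in PF against Ctrl (adjusted p = 3.2e-05), both of the latter called in every setting. Rab8b was at 42.0, 40.1 and 37.1 FPKM in Ctrl, 40.9, 43.4 and 44.1 FPKM in IgE/DNP and 52.1, 43.6 and 44.4 FPKM in PF. Its PF samples were above the Ctrl samples (0.22, adjusted p = 0.029) and overlapped the IgE/DNP samples. The call was kept in 8 of 14 settings and lost without Ctrl 2, Ctrl 3 or PF 1, without the filter, with limma without trend and with scaling to the same sum.

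Rab10, which moves vesicles to the cell surface in adipocytes and other cells, was at 45.6, 45.0 and 48.3 FPKM in Ctrl, 48.0, 49.2 and 49.0 FPKM in IgE/DNP and 56.8, 57.4 and 58.5 FPKM in PF. The PF samples were above all others, by 0.24 against IgE/DNP (SE 0.0331, limma adjusted p = 0.000457) and by 0.31 against Ctrl (adjusted p = 0.000302), in every setting. Rab4b, a Rab of fast recycling from early endosomes whose window is printed above, was at 46.7, 49.8 and 47.9 FPKM in Ctrl, 47.4, 45.4 and 46.5 FPKM in IgE/DNP and 53.4, 54.8 and 53.5 FPKM in PF. Only PF stood apart, with 0.21 against IgE/DNP (adjusted p = 0.00103). Its relative Rab4a was not called in any comparison. Rab13, known from tight junctions, was at 4.05, 3.68 and 3.78 FPKM in Ctrl, 4.72, 4.59 and 5.29 FPKM in IgE/DNP and 6.49, 5.44 and 5.67 FPKM in PF. It stepped upward with separate groups, by 0.28 (adjusted p = 0.0257) and 0.23 (adjusted p = 0.0476), and by 0.50 in PF against Ctrl (adjusted p = 0.000787). The first call was lost without Ctrl 2, Ctrl 3, IgE/DNP 1 or IgE/DNP 3 and without the filter. The second was lost without IgE/DNP 1, IgE/DNP 2, PF 1 or PF 3, without the filter, with the block and with scaling to the same sum, while the third was called in every setting.

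Rab25 and Rab11a, members of the recycling endosome subfamily, fell after antigen. Rab25 was at 54.8, 56.1 and 50.4 FPKM in Ctrl, 47.8, 46.8 and 47.7 FPKM in IgE/DNP and 58.3, 56.0 and 51.6 FPKM in PF. The IgE/DNP samples were below both other groups, with -0.18 against Ctrl (adjusted p = 0.0196), a call kept only without Ctrl 3 among the 6 fits that left out a sample, and 0.22 in PF against IgE/DNP (adjusted p = 0.00473), lost with scaling to the same sum. Rab11a was at 29.9, 27.9 and 28.4 FPKM in Ctrl, 26.1, 25.6 and 25.8 FPKM in IgE/DNP and 28.0, 28.5 and 26.7 FPKM in PF. Its fall of -0.15 (adjusted p = 0.029) was kept only without Ctrl 2 among those 6 fits and was lost with scaling to the same sum. Rab23, a regulator of Hedgehog signalling at the cilium, was at 3.54, 3.82 and 4.26 FPKM in Ctrl, 3.80, 4.43 and 4.40 FPKM in IgE/DNP and 2.86, 2.68 and 3.51 FPKM in PF. Its PF samples were below all others, by -0.38 against IgE/DNP (adjusted p = 0.0113), a call kept in every setting at the threshold of 0.05 and not at 0.01.

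Ratios of related Rabs within a sample do not depend on how samples are scaled. Log2 ratios were taken for 11 pairs that share a number. With 3 samples against 3 the smallest p of a two-sided exact permutation test is 0.1, and over the 33 tests made the smallest adjusted p was 0.236, so no ratio could pass the threshold. Rab8a over Rab8b was 1.94, 2.15 and 2.29 in Ctrl, 1.92, 1.81 and 1.74 in IgE/DNP and 1.18, 1.46 and 1.37 in PF. The ratio went down in 3 separate steps, by -0.22 and then -0.45 on the log2 scale. Rab5b over Rab5c was 0.233, 0.215 and 0.229 in Ctrl, 0.204, 0.207 and 0.208 in IgE/DNP and 0.152, 0.162 and 0.163 in PF. It too was separate between all groups, with a log2 difference of -0.51 between PF and Ctrl. Rab27a over Rab27b was 0.812, 0.926 and 0.998 in Ctrl and 1.07, 1.01 and 1.22 in IgE/DNP, which did not overlap (0.27), while the PF ratios of 0.992, 1.07 and 0.928 overlapped both. Rab33a over Rab33b was 1.24 in all 3 IgE/DNP samples, against 0.756, 1.08 and 0.875 in Ctrl and 1.07, 1.16 and 0.964 in PF.

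**Figure D4:**
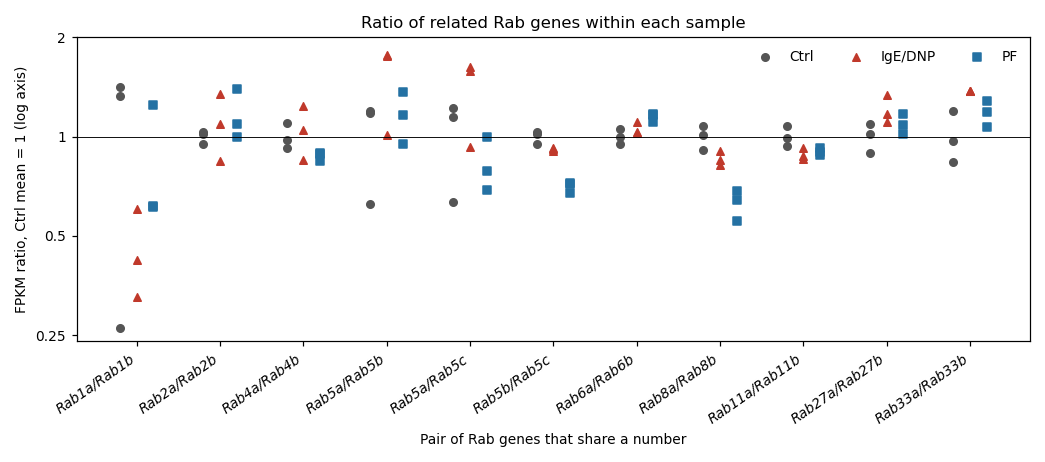
Ratio of FPKM of 2 related Rab genes within each sample, set to 1 at the Ctrl mean (vertical, log axis), for 11 pairs (horizontal), with 1 point per sample. Rab8a/Rab8b and Rab5b/Rab5c step down from Ctrl to IgE/DNP to PF with no overlap, and Rab1a/Rab1b and the pairs with Rab5a spread widely within a group.

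The 13 tested members that were called nowhere were Rab11b, Rab14, Rab22a, Rab24, Rab27b, Rab28, Rab2b, Rab33a, Rab34, Rab40c, Rab42, Rab4a and Rab5a. Several of them were abundant and had narrow intervals. Rab11b was at 94.4 ± 3.51, 96.0 ± 3.82 and 101 ± 2.83 FPKM in Ctrl, IgE/DNP and PF (SD, n = 3), and Rab14 at 85.7 ± 4.05, 87.1 ± 5.00 and 86.3 ± 3.95 FPKM. All PF samples of Rab11b were above its Ctrl and IgE/DNP samples. In PF against Ctrl its change was 0.10 (limma adjusted p = 0.0692, 95% interval 0.00 to 0.19), close to the threshold. For Rab14 the 95% interval in PF against IgE/DNP was -0.13 to 0.10. The 13 members below the filter were Rab3a, Rab3b, Rab3c, Rab44, Rab7b, Rab9b, Rab15, Rab19, Rab20, Rab30, Rab31, Rab36 and Rab40b, and 6 members had a mean under 0.1 FPKM.

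Genes that load, unload and read Rabs were counted as lists beside the members. Of 36 tested exchange factors, 4 were higher and 4 lower in IgE/DNP against Ctrl, where 14.7% and 14.4% of all genes were, and 3 were higher and 20 lower in PF against IgE/DNP, where the lower share was 55.6% against 30.7% of all genes. Of 30 tested GAPs, 3 and 9 moved after antigen and 1 and 14 with PF against IgE/DNP, 46.7% lower. Of 38 tested effectors, 7 and 2 moved after antigen and 2 and 23 with PF against IgE/DNP, 60.5% lower. In PF against Ctrl the counts were 4 and 20 for exchange factors, 2 and 15 for GAPs and 5 and 22 of 37 for effectors, with 55.6%, 50.0% and 59.5% lower against 34.6% of all genes. Among 8 tested genes of prenylation and GDI recycling, 4 were higher and 1 lower in PF against IgE/DNP, where 18.1% and 30.7% of all genes were. Under median ratio scaling the lower calls in PF against IgE/DNP were 17, 11 and 19 for exchange factors, GAPs and effectors, where 26.6% of all genes were lower. Under scaling to the same sum they were 24, 17 and 24, where 41.7% of all genes were lower.

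Rabgef1, the exchange factor Rabex-5 that activates Rab5, moved most of all the listed regulators and effectors in IgE/DNP against Ctrl. It was at 8.42, 9.32 and 9.25 FPKM in Ctrl, 24.2, 23.7 and 25.8 FPKM in IgE/DNP and 7.83, 9.20 and 9.20 FPKM in PF. The IgE/DNP samples stood far above both other groups, which overlapped. The change was 1.35 (SE 0.0567, limma adjusted p = 2.9e-06) in IgE/DNP against Ctrl and -1.39 (SE 0.0678, adjusted p = 1.11e-06) in PF against IgE/DNP, while PF against Ctrl gave -0.04 (adjusted p = 0.682). Dennd1a, an exchange factor of Rab35, rose after antigen from 5.34 ± 0.483 to 7.45 ± 0.445 FPKM (0.42, adjusted p = 0.00548), where Rab35 itself fell. Dennd3, an exchange factor of Rab12, was at 2.49 ± 0.157 FPKM in IgE/DNP and 1.18 ± 0.112 FPKM in PF (-0.68, adjusted p = 0.000286). Dennd6a, an exchange factor of Rab14, and Mon1b, part of a complex that activates Rab7, fell in PF against Ctrl by -0.84 (adjusted p = 5.45e-06) and -0.74 (adjusted p = 7.93e-06). Trappc1, a subunit of the TRAPP complexes that activate Rab1, fell after antigen (-0.20, adjusted p = 0.00628) and was higher in PF than in IgE/DNP (0.29, adjusted p = 9.91e-05). Dennd1c was higher in PF than in IgE/DNP (0.23, adjusted p = 0.0229) and Sbf1 higher in PF than in Ctrl (0.30, adjusted p = 0.000907).

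Among the GAPs, Tbc1d25, which acts on Rab33b, fell from 14.7 ± 1.25 FPKM in Ctrl to 11.8 ± 0.776 in IgE/DNP and 6.06 ± 0.416 in PF (-1.15 in PF against Ctrl, adjusted p = 7.06e-06). Tbc1d17 fell from 15.1 ± 0.554 to 10.8 ± 0.91 and 7.43 ± 0.67 FPKM (-0.94 in PF against Ctrl, adjusted p = 1.35e-05), and Tbc1d10c fell after antigen (-0.47, adjusted p = 0.00669). Tbc1d14, a binder of Rab11 with a role in autophagy, fell in PF against IgE/DNP (-0.64, adjusted p = 0.000225). Sgsm2 (0.48, adjusted p = 0.0018) and Tbc1d31 (0.39, adjusted p = 0.00862) rose after antigen, Tbc1d7 was higher in PF than in IgE/DNP (0.26, adjusted p = 0.0111) and Evi5l higher in PF than in Ctrl (0.25, adjusted p = 0.0122).

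Of the effectors, Plekhm1, which ties Rab7 to lysosome fusion, was at 8.41, 8.61 and 9.47 FPKM in Ctrl, 8.69, 9.16 and 8.27 FPKM in IgE/DNP and 3.81, 3.48 and 3.66 FPKM in PF. Only the PF samples were low (-1.06 against IgE/DNP, adjusted p = 4.29e-06, and -1.08 against Ctrl, adjusted p = 6.68e-06). Rilpl2, a partner of Rab8 and Rab10, rose after antigen (0.46, adjusted p = 0.0115) and fell in PF against IgE/DNP from 20.1 ± 0.478 to 9.72 ± 1.68 FPKM (-0.99, adjusted p = 8.37e-05). Fyco1, a Rab7 effector in lysosome transport, was lower in PF than in Ctrl (-0.55, adjusted p = 0.000132), and Rbsn, a Rab5 and Rab4 effector, rose after antigen (0.61, adjusted p = 0.00556). Unc13d (Munc13-4), the Rab27 effector that primes granules for fusion, was higher in PF than in IgE/DNP by 0.11 (adjusted p = 0.0496), at 43.8 ± 1.19 FPKM in IgE/DNP and 47.2 ± 1.38 FPKM in PF. This call is at the edge of the threshold. Scaling to the same sum took the median log2 change of all genes in this comparison from -0.04 to -0.128. The calls of single regulators and effectors are given for the values as deposited only. Sytl3 fell after antigen (-0.14, adjusted p = 0.0147), as did Golga2 (-0.18, adjusted p = 0.0151). Bicd2 was higher in PF than in IgE/DNP (0.23, adjusted p = 0.0128) and Rabepk higher in PF than in Ctrl (0.30, adjusted p = 0.00805).

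Rabggta, the alpha subunit of the enzyme that attaches geranylgeranyl tails to Rabs, was at 1.70, 1.86 and 1.91 FPKM in Ctrl, 2.88, 3.26 and 3.46 FPKM in IgE/DNP and 3.81, 3.87 and 3.72 FPKM in PF. The groups were separate, with 0.57 in IgE/DNP against Ctrl (limma adjusted p = 0.00223) and 0.77 in PF against Ctrl (adjusted p = 5.28e-05). PF against IgE/DNP gave 0.19 and was not called (adjusted p = 0.0674). The beta subunit Rabggtb was lower in PF than in IgE/DNP (-0.14, adjusted p = 0.0143). Ggps1, which makes the geranylgeranyl precursor, was lower in IgE/DNP than in Ctrl (-0.23, adjusted p = 0.0373) and higher in PF than in IgE/DNP (0.23, adjusted p = 0.00102). The escort protein gene Chml was higher in PF than in IgE/DNP (0.36, adjusted p = 0.0332).

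**Figure D5:**
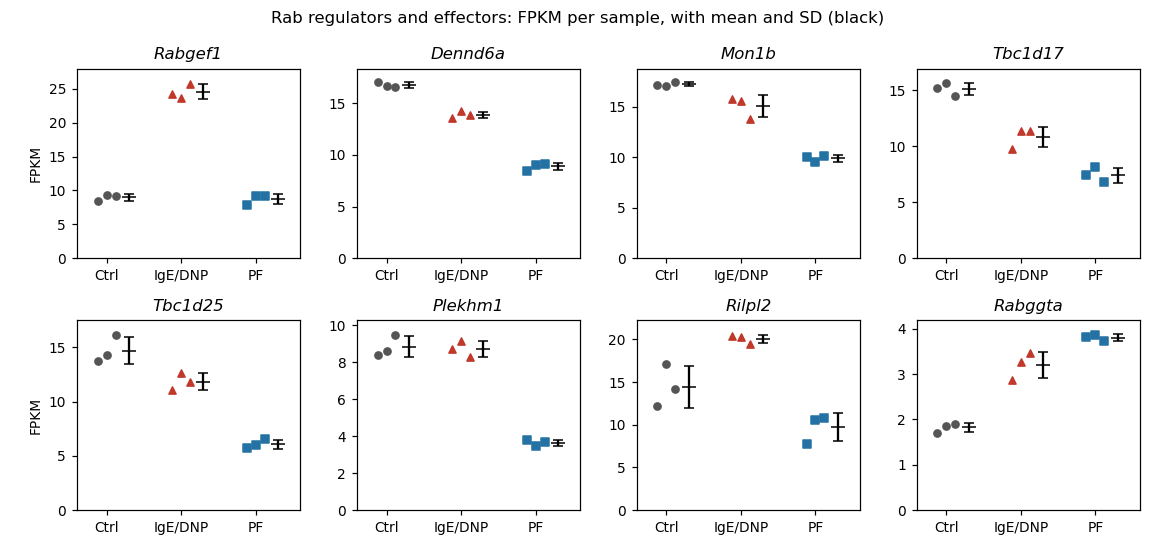
FPKM (vertical, linear axis from 0) per sample in Ctrl, IgE/DNP and PF for 8 regulators and effectors of Rabs, with the mean and SD of each group in black. Rabgef1 is high only in IgE/DNP (23.7 to 25.8 FPKM), Plekhm1 is low only in PF (3.48 to 3.81 FPKM), and Tbc1d17, Tbc1d25 and Dennd6a step down from Ctrl to IgE/DNP to PF.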

How the data were processed

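The authors prepared mRNA libraries from RBL-2H3 cells and filtered reads with SOAPnuke. Per the processing notes of the submitters, HISAT2 2.0.4, Bowtie2 2.2.5 and RSEM 1.2.12 were used with the rat build rn6. The authors estimated the deposited FPKM values with RSEM, and their heading gives no unit. They were read as FPKM, since they have decimals and sum to different totals. The depth in reads is therefore unknown.

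Each sample lists 38490 genes, of which 18006 have a value. Samples were grouped by their labels and genes joined by identifier. Each comparison used its own 6 samples in limma 3.58.1 under R 4.3.3, by lmFit and a trended eBayes. Values entered as log2(FPKM + 1), a gene was kept if 3 or more of these samples reached 1 FPKM, and p-values had Benjamini-Hochberg adjustment over all tested genes with a threshold of 0.05. Pair ratios had a two-sided exact permutation test. The fit was tested on simulated data. Alternatives were a pseudocount of 0.1, no filter or a stricter filter, a fit of all 9 samples, a replicate block, 2 scalings (median ratios, and each sample to the mean sum), no trend, a threshold of 0.01 and each sample left out in turn. The regulator lists were run under these settings as well, which was chosen after seeing the data. The members, gene lists and settings were chosen with earlier results of these data known, and no count test was run.

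Genes named with the value of each sample were, per comparison, the 5 highest and 5 lowest log2 fold changes among called members with groups that do not overlap, all secretory members, and the 5 highest means, with paralogues in pair ratios. Of each regulator list, up to 2 highest and 2 lowest calls per comparison were named. Rab7a, Rab38, Rab11b, Rab14 and the overlapping call of Rab12 were added after their values were seen. Promoter windows came from RefSeq.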

Additional observations from a re-analysis of the deposited data

How the results depend on the processing

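Every member called kept its sign under all alternatives, and the value of 1 named member that was not called reversed, Rab3d in PF against IgE/DNP, which was -0.02 with scaling to the mean sum. For IgE/DNP against Ctrl, 178 of 223 alternative values of 16 named results kept direction and side of the threshold and 45 lost the call. For PF against IgE/DNP these were 193 and 28 of 224, and for PF against Ctrl 204 and 3 of 209. The number of members called in IgE/DNP against Ctrl was 8 without the filter, 4 at a threshold of 0.01 and 5 to 10 with a sample left out. In PF against IgE/DNP it was 10 at a threshold of 0.01 and 13 to 19 with a sample left out, and in PF against Ctrl 18 to 21 with a sample left out. Over all genes 1469 of 10392 were called in IgE/DNP against Ctrl at a threshold of 0.01. For the other settings named here the share of all genes called is not given. Those counts therefore do not show whether the members differ from all genes. The cause of these changes was not tested, beyond the fewer samples or genes in a fit.

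Replicate numbers recur in all groups, but nothing in the labels says that they mark a shared culture or day. Deviations of samples with the same number correlated at -0.0739 to 0.0514 in IgE/DNP against Ctrl, -0.0822 to 0.00049 in PF against IgE/DNP and 0.083 to 0.189 in PF against Ctrl, so the numbers were not taken to pair the samples. With the replicate number as a block, 12, 17 and 23 members were called in these comparisons in place of 15, 20 and 21. The shares of all genes called with the block are not given. Only in PF against Ctrl did every sample correlate best with its own number, which is a hint from the data and not from the design.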
